A study of Rattus norvegicus with 16 samples.

Results

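The growth factor receptor tyrosine kinases described here are 10 genes, Pdgfra, Pdgfrb, Igf1r, Insr, Egfr, Fgfr1, Met, Axl, Ddr1 and Ddr2. They were taken by gene symbol from the 32883 rat genes of the deposited expression table, and their Ensembl identifiers were then looked up in the peak lists. The cells were primary rat aortic smooth muscle cells, with the strain and age not given in the labels, grown with 20% serum. The knockdown group was transduced for 48 h with an adenovirus expressing a hairpin (shRNA) directed at Nat10, and the control group, labelled wild type, with a control adenovirus for the same time. Nat10 encodes the enzyme that places N4-acetylcytidine (ac4C) on RNA. Each group had 3 input RNA libraries, and 3 libraries in which RNA fragments of 100 to 200 nt were pulled down with an antibody against ac4C. A further 3 libraries held RNA pulled down with the NAT10 protein (NAT10 RIP) from wild-type cells with no virus. The total RNA library made beside them, titled a non-IP control, is not used here. Knockdown and control cells thus both carried virus, and the NAT10 RIP cells did not. The repeats are called biological, but no source says that they came from separate animals, and p-values therefore measure the spread between these libraries, which may be technical.

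Receptor tyrosine kinases are single-pass membrane proteins that bind an extracellular ligand and then phosphorylate tyrosines on each other. The phosphorylated tails recruit adaptors and lipid kinases, which pass the signal to the Ras-MAPK and Akt kinases, and phosphatases and inhibitors of the Sprouty, Spred and Socs families limit it. In the vessel wall these receptors are best known for driving smooth muscle cells to divide and migrate, with the PDGF receptor beta as the classical mitogen receptor of that cell.

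The deposited expression values were FPKM, which divide the fragments of a gene by its length and by a library scale, and the fragments recovered from them numbered 6417941 to 7468528 per knockdown library and 8171176 to 12065991 per control library. Nat10 stood at 4.38, 3.68 and 4.58 FPKM in knockdown libraries 1 to 3, against 7.69, 9.22 and 9.95 FPKM in control libraries 1 to 3. The targeted gene was lower in every knockdown library, by 0.93 on the log2(FPKM + 1) scale (SE 0.19), with a limma adjusted p of 0.227 over 13450 genes. Of 8 smooth muscle markers 7 averaged at least 1 FPKM and Des, encoding desmin, stood below it. Their summed level was 674 to 3286 FPKM in the knockdown libraries, lowest in knockdown library 2, and 4172 to 5692 FPKM in the control libraries. All 7 fibroblast markers, among them the receptor Pdgfra, were present. They summed to 193.7 to 266 FPKM in the knockdown and 296.6 to 319 FPKM in the control libraries. That sum was mostly Dcn and Lum, which did not move together. Dcn stood at 38.7 and Lum at 193.5 FPKM in control library 1, against 121 and 91.4 FPKM in control library 2. Of 6 endothelial markers only Flt1 averaged at least 1 FPKM, and the list summed to 6.13 to 22.0 FPKM in the knockdown and 7.73 to 13.4 FPKM in the control libraries. Of 6 leukocyte markers only Cd68 did so, with Cd3e at 0 in every library, and the list summed to 5.03 to 11.2 FPKM in the knockdown and 3.54 to 5.36 FPKM in the control libraries. Of 4 epithelial markers only Krt8 did so, with sums of 0.752 to 7.05 FPKM in the knockdown and 1.73 to 4.76 FPKM in the control libraries. Knockdown library 2 lay farthest out on the first principal component, at -70.0, where the other 5 libraries lay between -10.3 and 30.9. Control libraries 2 and 3 resembled each other most, at a median per-gene chi-square of 0.766, where the other pairs gave 3.17 to 11.7. In RNA from a whole culture, fewer cells of a type and less RNA per cell cannot be told apart.

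All 10 receptors were expressed in these cells. FPKM is a level per length, so genes can be set beside each other on it. By the mean over all 6 libraries Pdgfrb lay above 97.3% of the 13450 tested genes and Insr, the lowest of the 10, above 53.8% of them. In the knockdown libraries Pdgfrb, at a mean of 128.9 FPKM, and Axl, at 125.9 FPKM, were the top pair, followed by Fgfr1, Ddr2, Igf1r, Ddr1, Egfr, Pdgfra, Met and Insr, at 13.6 FPKM. Every neighbour in that order overlapped between libraries except Igf1r, which lay above Ddr1. In the control libraries the means ran from Pdgfrb, at 191 FPKM, through Axl, Ddr2, Fgfr1, Igf1r, Ddr1, Pdgfra, Egfr and Met to Insr, at 9.12 FPKM. There 3 neighbouring pairs overlapped, Pdgfrb with Axl, Igf1r with Ddr1 and Met with Insr, and each other neighbour was separate in every library. The receptors had between 382 and 14697 recovered fragments in a library.

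**Figure D1:**
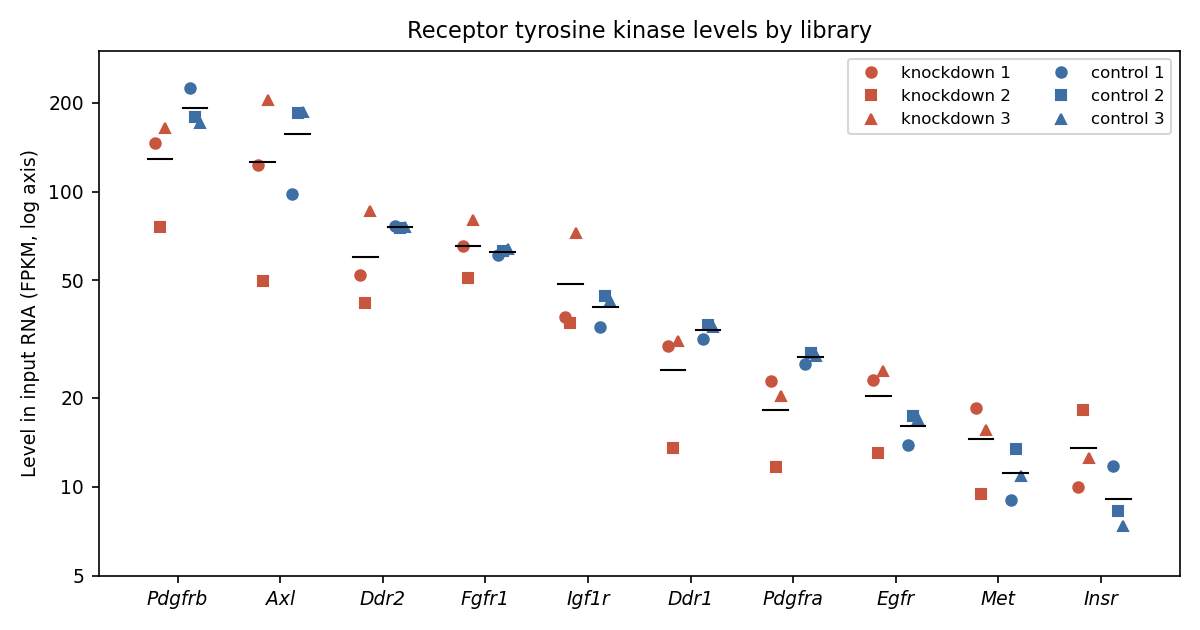
Expression of the 10 receptor genes in each input library, in FPKM on a log axis, with knockdown points left of control points for each gene and the group mean as a bar. The knockdown points of Pdgfra, Pdgfrb and Ddr1 lie below all 3 control points of the same gene, and for every gene the knockdown points spread farther than the control points.

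None of the 10 receptors passed the test for a difference between knockdown and control. Limma with Benjamini-Hochberg adjustment called 0.0% of the 13450 tested genes at 0.05, voom on the recovered fragments called 0 genes, and a fit with library quality weights called 120 higher and 215 lower, 0 of them receptors. That weighted fit gave most weight to control libraries 2 and 3, the pair most alike. With these averaged, limma without weights called 0 genes, as it did with all libraries kept apart. Without adjustment 1 receptor, Pdgfra, had a p below 0.05, where 1679 genes did, 12.5% of all. Its direction was lower, where 935 genes or 6.95% had such a p, and 0 receptors had one in the higher direction, where 744 or 5.53% did. With each library scaled to its recovered fragment total that split was 569 lower and 1124 higher and the median of all genes moved to 0.12, and 0 receptors changed sign. The log2 differences were negative for 5 receptors and positive for 5, with a median of -0.18, against a median of -0.01 over all tested genes. Knockdown values lay wholly below the control range for 3 receptors, Pdgfra, Pdgfrb and Ddr1, against 10.9% of all genes, and wholly above it for 0 receptors, against 9.63%. Both directions together made up 20.6% of all genes.

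The alpha receptor for platelet-derived growth factor, Pdgfra (ENSRNOG00000002244), binds the PDGF A, B and C chains and marks many mesenchymal cells. It stood at 22.8, 11.7 and 20.3 FPKM in knockdown libraries 1 to 3, against 26.2, 28.5 and 27.8 FPKM in control libraries 1 to 3. Every knockdown library lay below every control library, knockdown library 2 farthest. The means were 18.2 ± 5.80 FPKM in knockdown and 27.5 ± 1.19 FPKM in control cells (SD, n = 3 each), a log2 difference of -0.62 with an SE of 0.25. The unadjusted limma p was 0.0444 and the adjusted p 0.389. Without knockdown library 2 the difference was -0.34.

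Pdgfrb (ENSRNOG00000018461), the receptor for the PDGF B and D chains, was the most abundant of the 10 in both groups. It stood at 146, 75.7 and 164.8 FPKM in the knockdown libraries, against 224, 179 and 171 FPKM in the control libraries. The groups again did not overlap, with knockdown library 3 just under control library 3. The means were 128.9 ± 47.0 FPKM in knockdown and 191 ± 28.7 FPKM in control cells (SD, n = 3 each), a log2 difference of -0.63 (SE 0.31, limma adjusted p = 0.460). Without knockdown library 2 it was -0.29, and without that library and control library 1 it was -0.17. Pdgfra amounted to 0.156, 0.155 and 0.123 of Pdgfrb in knockdown libraries 1 to 3, against 0.117, 0.159 and 0.162 in control libraries 1 to 3. The log2 ratio was -2.80 ± 0.19 in knockdown and -2.79 ± 0.27 in control cells (SD, n = 3 each), with a difference of -0.01 and a two-sided exact permutation p of 1 (adjusted over 3 ratios 1), where 3 libraries against 3 can give no p below 0.1.

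The genes whose profile over the 6 libraries lay nearest to that of Pdgfrb, among 9325 genes with a mean of at least 5 FPKM, were Filip1l, Fez2 and Zyx, at Euclidean distances of 0.158, 0.172 and 0.226 on the log2 scale after each gene was centred. Zyx encodes zyxin, a focal adhesion protein. Zyx stood at 118, 58.2 and 131 FPKM in the knockdown libraries, against 151, 134 and 139 FPKM in the control libraries. All 3 genes shared with Pdgfrb a lowest value in knockdown library 2, which their choice by nearness over the same libraries made likely.

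Upstream sequence was read from RefSeq for rat assembly GRCr8, 250 bases before to 50 after each start. Of the 10 receptors 7 had an entry, and Pdgfrb was not among them. The windows of Pdgfra and of one of the Ddr1 starts are printed because both genes stood below all controls. A link between these sequences and the knockdown was not tested. Pdgfra lies on the minus strand at chr14:33408467-33408766 and Ddr1 on the plus strand at chr20:3050156-3050455. Capitals mark the GC box (GGGCGG or CCGCCC) and the CCAAT box (CCAAT or ATTGG), each searched on both strands.
Pdgfra promoter: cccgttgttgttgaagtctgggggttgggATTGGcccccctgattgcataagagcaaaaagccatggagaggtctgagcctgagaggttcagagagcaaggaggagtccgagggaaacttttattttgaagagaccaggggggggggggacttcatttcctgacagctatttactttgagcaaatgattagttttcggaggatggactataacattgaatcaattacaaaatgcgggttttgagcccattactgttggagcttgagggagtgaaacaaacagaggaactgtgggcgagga
Ddr1 promoter: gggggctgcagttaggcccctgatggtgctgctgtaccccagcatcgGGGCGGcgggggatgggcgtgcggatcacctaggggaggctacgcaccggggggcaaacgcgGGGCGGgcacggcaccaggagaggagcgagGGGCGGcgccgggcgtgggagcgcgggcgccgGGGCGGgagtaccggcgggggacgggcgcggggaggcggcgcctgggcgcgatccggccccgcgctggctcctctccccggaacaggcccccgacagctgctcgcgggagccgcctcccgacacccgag
The Pdgfra window held 1 CCAAT box and 0 GC boxes at 48.0% GC, and the Ddr1 window held 4 GC boxes and 0 CCAAT boxes at 78.7% GC. The other Ddr1 start, at chr20:3048737-3049036, held 0 of either at 60.0% GC. Among 33469 rat promoter windows 33.1% held a GC box and 37.5% a CCAAT box, and the median GC was 51.7%. Neither printed window held a TATA box (TATAAA or TTTATA), which 14.2% of windows did. These are letter matches in a window and not bound sites.

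The insulin-like growth factor and insulin receptors are close relatives that share the insulin receptor substrates. Igf1r (ENSRNOG00000014187) stood at 37.6, 35.8 and 72.3 FPKM in knockdown libraries 1 to 3, against 34.8, 44.3 and 42.5 FPKM in control libraries 1 to 3. Knockdown library 3 alone lay above all controls, and the other 2 lay within the control range. The log2 difference was 0.19 (SE 0.29, limma adjusted p = 0.819), and leaving out knockdown library 2 or 3 gave 0.36 or -0.13.

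Insr (ENSRNOG00000029986) stood at 9.98, 18.2 and 12.5 FPKM in the knockdown libraries, against 11.7, 8.30 and 7.34 FPKM in the control libraries. It was the only receptor of the 10 whose highest value was in knockdown library 2, and its groups overlapped through control library 1. The means were 13.6 ± 4.21 FPKM in knockdown and 9.12 ± 2.31 FPKM in control cells (SD, n = 3 each), a log2 difference of 0.51 (SE 0.27, limma adjusted p = 0.482). Without knockdown library 2 the difference was 0.29. Igf1r exceeded Insr 3.77, 1.97 and 5.78 times in knockdown libraries 1 to 3, against 2.97, 5.34 and 5.80 times in control libraries 1 to 3. The difference of the log2 ratios was -0.37 (two-sided exact permutation p = 0.6, adjusted over 3 ratios 0.9), and it was 0.05 without knockdown library 2.

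Nearest to the Insr profile were Psmd9 and Eif4ebp2, both at a distance of 0.204, and Mms19 at 0.233. Eif4ebp2 encodes a repressor of cap-dependent translation that is released when growth factor signalling phosphorylates it. Its level was 25.2, 52.0 and 33.8 FPKM in the knockdown libraries, against 28.6, 22.3 and 21.0 FPKM in the control libraries. Like Insr it was highest in knockdown library 2, which its choice by nearness to Insr over the same libraries made likely.

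**Figure D2:**
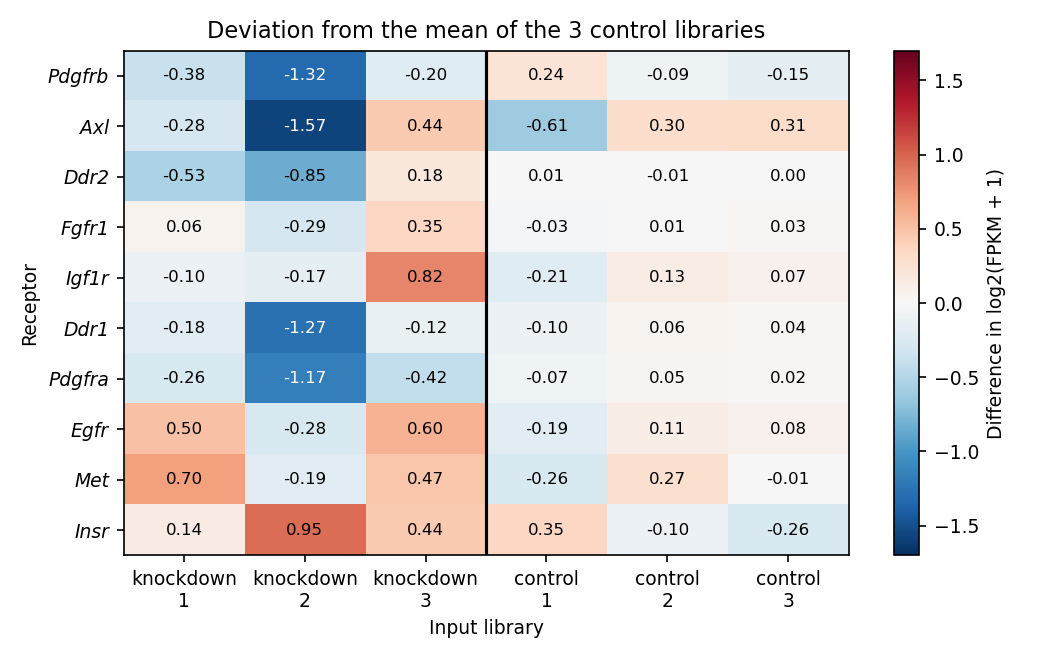
Deviation of each receptor in each input library from its mean over the control libraries, in log2(FPKM + 1) units, with the knockdown libraries in the left columns. Knockdown library 2 is negative for 9 of the 10 receptors, down to -1.57 for Axl, and 0.95 for Insr.

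The receptors for epidermal, fibroblast and hepatocyte growth factor showed higher means after knockdown, with overlapping groups. Egfr (ENSRNOG00000004332), the receptor for EGF, TGF-alpha and related ligands, stood at 23.1, 13.0 and 24.7 FPKM in the knockdown libraries, against 13.9, 17.4 and 16.9 FPKM in the control libraries. Met (ENSRNOG00000052745), the receptor for hepatocyte growth factor, stood at 18.5, 9.47 and 15.6 FPKM in the knockdown libraries, against 8.99, 13.4 and 10.9 FPKM in the control libraries. Both were above every control in knockdown libraries 1 and 3 and not in knockdown library 2. The log2 difference was 0.27 for Egfr (SE 0.26, limma adjusted p = 0.693) and 0.33 for Met (SE 0.27, limma adjusted p = 0.654). Without knockdown library 2 the differences were 0.55 for Egfr and 0.59 for Met, and the smallest were 0.11 for Egfr without knockdown library 3 and 0.14 for Met without knockdown library 1.

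Fgfr1 (ENSRNOG00000016050), the main fibroblast growth factor receptor of mesenchymal cells, had the smallest difference of the 10. It stood at 65.5, 51.1 and 80.4 FPKM in the knockdown libraries, against 61.2, 62.9 and 63.9 FPKM in the control libraries. The controls had an SD of 1.36 FPKM (n = 3), and the knockdown libraries lay on both sides of them. The log2 difference was 0.04 (SE 0.20, limma adjusted p = 0.945), and leaving out knockdown library 2 or 3 gave 0.21 or -0.11.

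Axl (ENSRNOG00000020716), a TAM-family receptor that binds the vitamin K-dependent ligand Gas6 and is known for a part in vascular remodelling, varied more than any other receptor. It stood at 123.3, 49.9 and 204.5 FPKM in knockdown libraries 1 to 3, against 98.0, 184.5 and 186.6 FPKM in control libraries 1 to 3. Control library 1 lay below knockdown library 1, so that neither group was uniform. The means were 125.9 ± 77.3 FPKM in knockdown and 156 ± 50.6 FPKM in control cells (SD, n = 3 each), a log2 difference of -0.47 (SE 0.52, limma adjusted p = 0.739). Without knockdown library 2 the sign turned, to 0.08, and without knockdown library 3 the difference was -0.92.

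The discoidin domain receptors are receptor tyrosine kinases whose ligands are collagens. Ddr1 (ENSRNOG00000057125), of which the upstream sequence is printed above, stood at 29.9, 13.5 and 31.2 FPKM in the knockdown libraries, against 31.7, 35.4 and 34.9 FPKM in the control libraries. The groups did not overlap, and knockdown libraries 1 and 3 lay just under control library 1. The log2 difference was -0.52 (SE 0.31, limma adjusted p = 0.533), and -0.15 without knockdown library 2.

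Ddr2 (ENSRNOG00000002881), which prefers fibrillar collagens, stood at 52.2, 41.8 and 85.9 FPKM in the knockdown libraries, against 76.5, 75.5 and 75.7 FPKM in the control libraries. Its controls were the tightest of any receptor, at 75.9 ± 0.502 FPKM (SD, n = 3), while the knockdown libraries averaged 60.0 ± 23.1 FPKM (SD, n = 3) and lay on both sides. The log2 difference was -0.40 (SE 0.27, limma adjusted p = 0.575), -0.18 without knockdown library 2 and -0.69 without knockdown library 3. Ddr1 amounted to 0.573, 0.323 and 0.363 of Ddr2 in knockdown libraries 1 to 3, against 0.414, 0.468 and 0.461 in control libraries 1 to 3. The difference of the log2 ratios was -0.14 (two-sided exact permutation p = 0.6, adjusted over 3 ratios 0.9).

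What the receptors shared was a wide spread within the knockdown group. The coefficient of variation was larger in the knockdown than in the control libraries for 10 of 10 receptors and for 75.5% of all tested genes. Its median over the receptors was 34.1% in the knockdown and 12.2% in the control libraries, where the medians over all tested genes were 29.6% and 15.7%. Control libraries 2 and 3 were by far the most alike pair, at a median per-gene chi-square of 0.766, so the control spread may be understated. Knockdown library 2 gave the lowest value of the 6 for 7 of 10 receptors, against 27.9% of all genes, and knockdown library 3 the highest for 5 of 10, against 17.5%. The median deviation from the control mean over the receptors was -0.14, -0.57 and 0.40 in knockdown libraries 1 to 3. The summed smooth muscle markers were also lowest in knockdown library 2, at 674 FPKM, and highest of the knockdown libraries in library 3, at 3286 FPKM, and that sum was mostly Acta2 and Tagln. Single markers did not all follow it, since Myh11 was highest of the knockdown libraries in library 2, at 6.28 FPKM, Smtn lowest in library 3, at 35.5 FPKM, and Cnn1 highest in library 1, at 59.8 FPKM. The part of the markers in the receptor values was not tested.

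**Figure D3:**
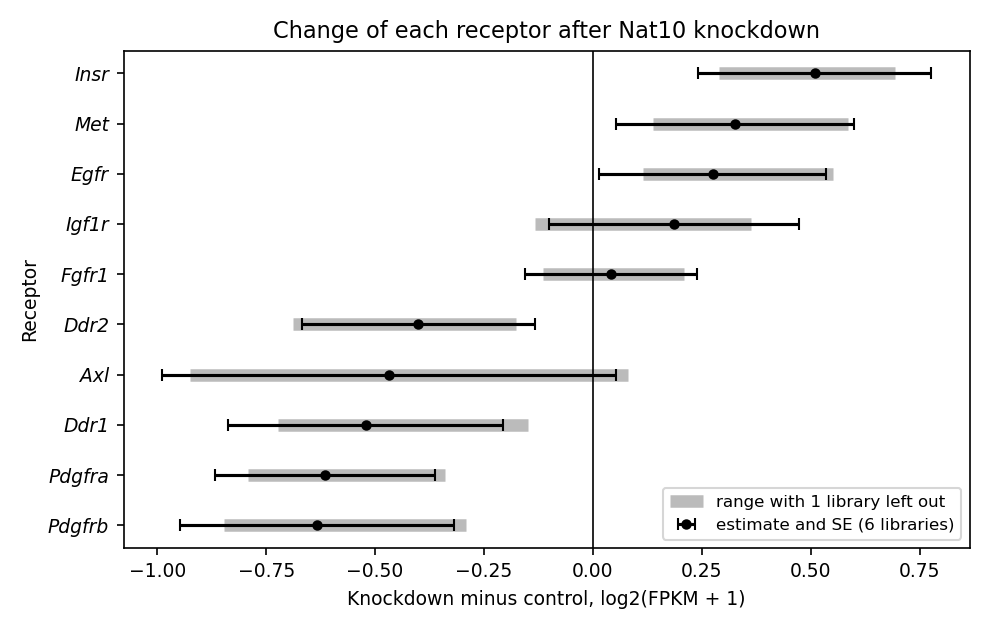
Log2 difference, knockdown minus control, of each receptor on the log2(FPKM + 1) scale with its limma standard error, over a grey bar for the range of fits that left out 1 library each. The bar crosses 0 for Igf1r, Fgfr1 and Axl, reaching 0.08 for Axl, and stays on one side of 0 for the other 7 receptors.

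The genes around the receptors were followed in 6 lists of the pathway, and limma called 0 members of each list. Of 16 tested ligands 14 had a negative log2 difference and 2 a positive one, with a median of -0.41, against -0.01 over all genes. The median was -0.08, with 11 of 16 negative, without knockdown library 2. Among the 9 ligands with a mean of at least 5 FPKM, 7 were negative and the median was -0.19. Tgfa, the Egfr ligand TGF-alpha, stood at 16.7, 11.4 and 34.9 FPKM in the knockdown libraries, against 35.8, 48.7 and 46.8 FPKM in the control libraries. Pdgfd, the D chain that acts on Pdgfrb, stood at 1.505, 1.45 and 3.58 FPKM in the knockdown libraries, against 4.95, 4.50 and 5.09 FPKM in the control libraries. Both ligands were lower in every knockdown library, by 1.16 for Tgfa and 0.94 for Pdgfd on the log2 scale, with limma adjusted p-values of 0.327 and 0.322. Gas6, the Axl ligand, stood at 71.4, 137 and 86.7 FPKM in the knockdown libraries, against 279, 132 and 128 FPKM in the control libraries, with overlapping groups and a limma adjusted p of 0.428. Its log2 difference was -0.82, and -0.45 without control library 1.

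Among 17 other receptor tyrosine kinases 13 had a negative difference and 4 a positive one, with a median of -0.16. Without control library 1 the median was -0.04, and without control library 2, 9 of 17 were negative, as they were when scaled to the recovered fragment total. The smallest limma adjusted p in the list was 0.4995, for Fgfr2. Fgfr2 averaged 5.45 ± 2.44 FPKM in knockdown and 8.28 ± 1.92 FPKM in control cells, and the ephrin receptor Epha2 averaged 25.5 ± 9.57 FPKM in knockdown and 17.6 ± 1.27 FPKM in control cells (SD, n = 3 each). Ryk, a Wnt co-receptor, had a log2 difference of -0.26. These 3 had overlapping groups. The log2 difference of Fgfr2 was -0.58, and -0.29 without knockdown library 2. That of Epha2 was 0.44, with 0.19 without knockdown library 1 and 0.75 without knockdown library 2. Ryk ranged from -0.40 without knockdown library 3 to -0.14 without control library 1. Of 14 co-receptors and surface modulators 10 were negative and 4 positive, with a median of -0.10, and without knockdown library 1 the list split into 7 and 7. Scaled to the recovered fragment total, 6 were negative and 8 positive, with a median of 0.05 where the median of all genes was 0.12. Adam17, the protease that releases TGF-alpha and other Egfr ligands from the cell surface, stood at 40.8, 47.7 and 34.5 FPKM in the knockdown libraries, against 30.0, 23.4 and 24.2 FPKM in the control libraries. It was higher in every knockdown library, with a log2 difference of 0.64 (SE 0.19, limma adjusted p = 0.304). The proteoglycans Gpc4 and Sdc4, which hold growth factors at the membrane, had differences of -0.59 and -0.43, and both were lower in every knockdown library (limma adjusted p = 0.380 and 0.406).

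Of 22 adaptors and proximal enzymes 15 had a positive and 7 a negative difference, with a median of 0.07, and without knockdown library 3 the list split into 11 and 11. Yes1, a Src-family kinase, averaged 12.7 ± 4.07 FPKM in knockdown and 22.3 ± 1.55 FPKM in control cells (SD, n = 3 each), a difference of -0.81 with no overlap (limma adjusted p = 0.300). Pik3ca, the catalytic subunit of a phosphoinositide kinase, had a difference of 0.56 and Irs1, the docking protein of Insr and Igf1r, one of -0.42, both with overlapping groups (limma adjusted p = 0.425 and 0.489). Without knockdown library 2 these were 0.32 for Pik3ca and -0.25 for Irs1. The 14 Ras-MAPK and Akt kinases had 11 negative and 3 positive differences with a median of -0.10, and 7 of each without knockdown library 1. Scaled to the recovered fragment total, the direction turned, to 5 negative and 9 positive with a median of 0.05, where the median of all genes was 0.12. Their smallest limma adjusted p was 0.411, for Map2k2, a kinase of the Ras-MAPK cascade. Araf, a Raf kinase, was lower in every knockdown library, at a log2 difference of -0.29.

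The 27 negative regulators leaned the other way, with 22 positive and 5 negative differences and a median of 0.16, and 18 to 22 of 27 were positive with each library left out in turn. The median was 0.08 without knockdown library 1. Spred3, an inhibitor of Ras signalling, stood at 21.7, 27.9 and 14.7 FPKM in the knockdown libraries, against 14.6, 10.4 and 11.9 FPKM in the control libraries. It was higher in every knockdown library, with knockdown library 3 just above control library 1 and a log2 difference of 0.72 (SE 0.26, limma adjusted p = 0.355). Grb14, an adaptor that binds and inhibits the insulin receptor, went the opposite way from most of its list. It stood at 42.0, 31.0 and 51.4 FPKM in the knockdown libraries, against 103, 89.3 and 87.6 FPKM in the control libraries. That log2 difference of -1.18 (SE 0.21) had an unadjusted limma p of 0.000902 and an adjusted p of 0.211.

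**Figure D4:**
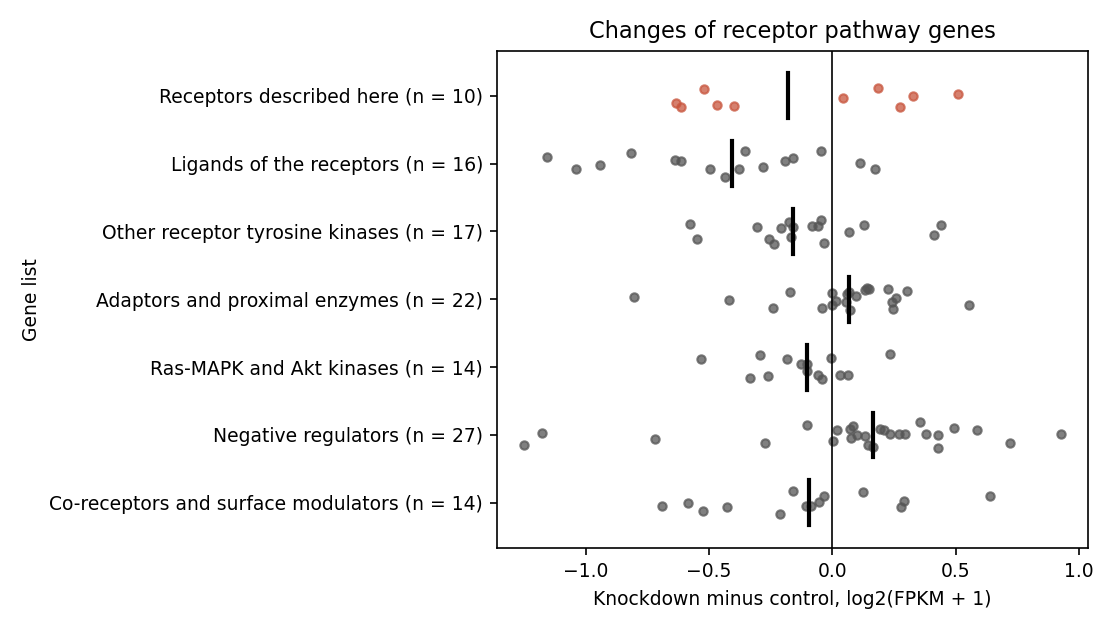
Log2 differences, knockdown minus control, on the log2(FPKM + 1) scale for the tested genes of each pathway list and for the 10 receptors, with a bar at each median. The ligands have the lowest median, -0.41, and the negative regulators the highest, 0.16.

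The ac4C peak lists held few peaks in receptor genes. Knockdown lists 1 to 3 held 1, 2 and 1 such peaks, against 5, 6 and 4 in control lists 1 to 3. The means were 1.33 ± 0.577 peaks per knockdown list and 5.0 ± 1.0 per control list (SD, n = 3 each), and the two-sided exact permutation p was 0.1, the smallest that 3 lists against 3 can give. The lists themselves were unequal, with 3111, 2658 and 2592 peaks in knockdown lists 1 to 3 and 29998, 29593 and 3479 in control lists 1 to 3. In control lists 1 and 2, 26881 and 27673 peaks carried one shared p of 0.045 and 0.046. With the most frequent p of each list left out, the receptors had 1, 2 and 1 peaks in the knockdown lists, against 3, 2 and 4 in the control lists (two-sided exact permutation p = 0.2). Per 1000 remaining peaks that was 0.339, 0.782 and 0.402 in the knockdown lists, against 0.963, 1.04 and 1.20 in the control lists. Per 1000 of all listed peaks it was 0.321, 0.752 and 0.386 in the knockdown lists, against 0.167, 0.203 and 1.15 in the control lists, so that control lists 1 and 2 lay below every knockdown list on that rate. At least 1 knockdown list held a peak for 3 receptors, against 33.0% of the tested genes, and at least 1 control list for 7 receptors, against 59.0%. Both groups held a peak for 2 receptors, Axl and Ddr1, against 23.6% of tested genes, and control lists alone for 5 receptors, against 35.4%. With the most frequent p left out, knockdown lists held a peak for 3 receptors, against 32.2%, and control lists for 5, against 33.5%.

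Axl and Ddr2 had a peak in all 3 control lists, as did 7.37% of the tested genes, and Axl alone among the receptors had one position that recurred across both groups. Its peaks lay on rat chromosome 1, minus strand, in knockdown lists 1 and 3 and in all 3 control lists, and the 5 shared the window from 82549450 to 82549599. The authors' p-values there were listed as 0 and 0.00022 in knockdown lists 1 and 3, against 4.8e-06, 3.2e-51 and 1e-23 in control lists 1 to 3. The list without it, knockdown library 2, was also the one with the lowest Axl level in input RNA, 49.9 FPKM. A peak in at least 5 of the 6 lists was found for 722 genes, 5.37% of those tested. Coordinates are as deposited, with rn6 the only rat build in the submitters' processing notes.

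Ddr2 had a peak in all 3 control lists and in 0 of the knockdown lists, a pattern of 1.81% of the tested genes. The peaks were at chromosome 13 positions 88436490 to 88436669, 88436161 to 88436340 and 88342722 to 88343193 in control lists 1 to 3, and no position was shared. Their p-values were 0.003, 0.046 and 5e-37, and the one of control list 2 was the p shared by most of its list. The ac4C shares are over all tested genes and were not computed among genes of similar level. By mean FPKM Ddr2 lay above 92.7% and Axl above 96.8% of the tested genes.

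The authors' p-value is given with each of the remaining peaks. Pdgfrb had 1 ac4C peak, in control list 1 at chromosome 18 positions 56405451 to 56405661 (authors' value 3.2e-17). Insr had 1, in control list 3 at chromosome 12 positions 1681376 to 1681555 (authors' value 1.6e-17). Egfr had 1, in control list 2 at chromosome 14 positions 100064681 to 100066731 in 2 blocks (authors' value 3.1e-09). Each of these stood in a single list. Met had peaks in control lists 1 and 2 alone, from 44774741 on chromosome 4, all at the shared p. Ddr1 had a peak at that shared p in the same 2 control lists, at chromosome 20 positions 3552929 to 3555193, and a different one in knockdown list 2, at 3563861 to 3565348 (authors' value 0.01). Pdgfra had a peak in knockdown list 2 alone, at chromosome 14 positions 35529391 to 35529570 (authors' value 0.0087). For Igf1r and Fgfr1 the lists held 0 peaks.

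**Figure D5:**
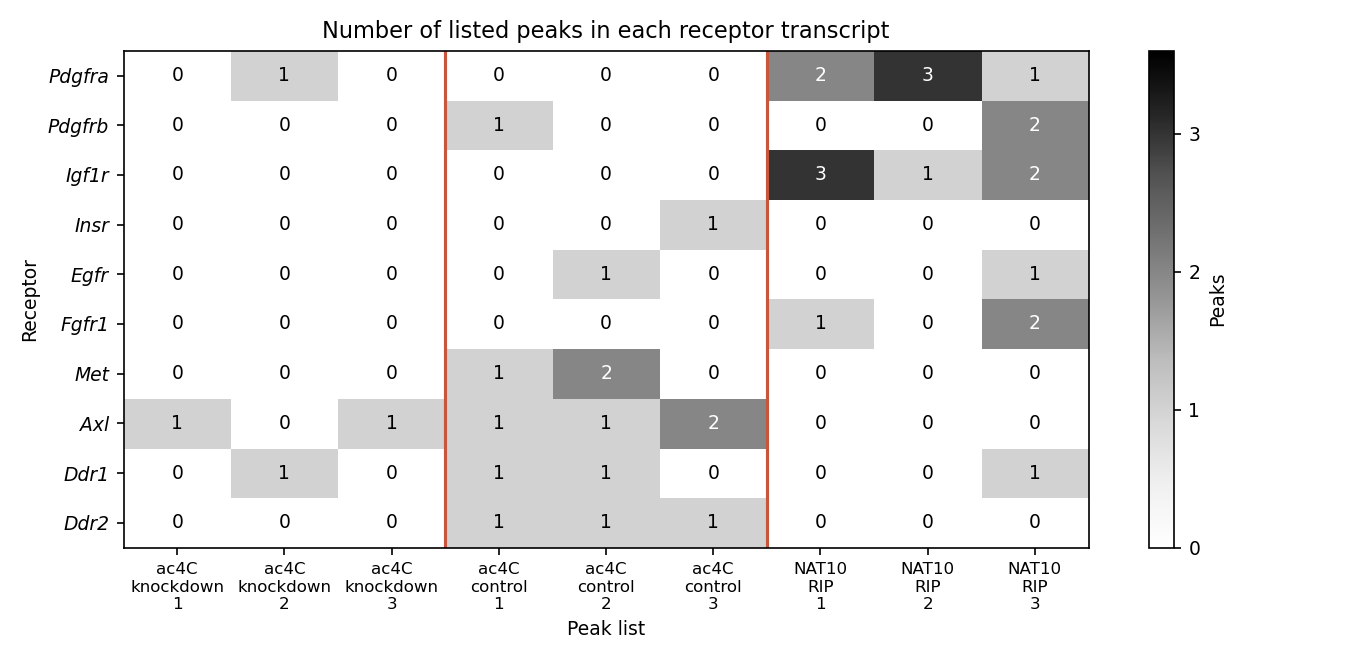
Number of deposited peaks in each receptor gene per list, for the ac4C lists of the knockdown and control groups and for the NAT10 RIP lists. Axl has ac4C peaks in 5 of 6 lists and no NAT10 RIP peak, while Pdgfra and Igf1r have NAT10 RIP peaks in all 3 lists.

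The NAT10 RIP lists, from cells without virus, give binding only and no comparison of groups. Of the 10 receptors 6 had a peak in at least 1 list, against 5.93% of all tested genes and 11.2% of the 6732 genes with a mean of at least 10 FPKM. Pdgfra had 2, 3 and 1 peaks and Igf1r 3, 1 and 2 peaks in lists 1 to 3. These 2 receptors were in all 3 lists, as were 2.68% of tested genes and 5.2% of those at 10 FPKM or more. Fgfr1 had 1, 0 and 2 peaks, Pdgfrb 0, 0 and 2, and Egfr and Ddr1 1 each in list 3. Insr, Met, Axl and Ddr2 had none, and without list 3 the number of receptors with a peak was 3. A total RNA library titled a non-IP control was made beside these libraries. No source used here says whether the RIP enrichment was computed against it.

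At the median, the receptor peaks were weaker than the peaks of their lists, though by little in list 3. Their log2 enrichment, as the authors' lists give it, was 0.887 to 1.13 in list 1, 0.954 to 1.02 in list 2 and 0.920 to 1.20 in list 3. The receptor medians were 0.961, 0.979 and 1.073 in lists 1 to 3, beside list medians of 1.090, 1.073 and 1.092. On chromosome 14 the Pdgfra peak of list 1 from 35559112 to 35560652 (log2 enrichment 0.96, adjusted p = 1.23e-21 in the authors' list) shared 50 nt with that of list 2 from 35559137 to 35559186 (log2 enrichment 1.00). On chromosome 1 the Igf1r peak from 129159187 to 129159236 was the same in lists 1 and 3, with log2 enrichments of 0.95 and 0.98. The 2 receptors in all 3 lists thus each had a position that recurred in 2 of them.

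Of the 10 receptors 4 had both an ac4C and a NAT10 RIP peak, Pdgfra, Pdgfrb, Egfr and Ddr1, against 5.08% of all tested genes and 9.67% of those with at least 10 FPKM. In 0 of the 4 did the peaks overlap. The nearest pair lay 939 nt apart in Pdgfra, 2574 nt in Egfr, 9273 nt in Ddr1 and 12995 nt in Pdgfrb. These are distances on the genome, with any introns between the peaks counted, and not along the transcript. For Pdgfra and Ddr1 the ac4C peak of the pair was that of knockdown list 2. Over all genes with both kinds of peak, 212 of 685 had at least 1 nt of overlap. Axl and Ddr2, the receptors with ac4C peaks in all 3 control lists, had no NAT10 RIP peak.

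In the rest of the pathway a NAT10 RIP peak in at least 1 list was found for 1 of 16 ligands, 1 of 17 other receptor tyrosine kinases, 4 of 14 co-receptors and surface modulators, 4 of 22 adaptors and proximal enzymes, 0 of 14 Ras-MAPK and Akt kinases and 1 of 27 negative regulators, beside 5.93% of all tested genes and 11.2% of those with a mean of at least 10 FPKM. In all 3 lists, as for Pdgfra and Igf1r, were Epha2, the co-receptors Igf2r and Lrp1, the phosphoinositide kinase subunit Pik3r1, the phospholipase Plcg1 and the Ras inhibitor Nf1. Igf2r and Lrp1 encode endocytic receptors that take up Igf2 and many other ligands. Grb2, the adaptor that links receptors to Ras, and Grb10, an inhibitory adaptor of Insr and Igf1r, had ac4C peaks in all 3 control lists and in 0 knockdown lists. So did Ddr2 and 1.81% of all tested genes, and most peaks of control lists 1 and 2 carried a shared p.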

How the data were processed

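Input RNA of 3 knockdown and 3 control libraries was deposited by the authors as FPKM per Ensembl gene. Named in the submitters' processing notes, without roles, are HOMER 4.10.4, HISAT2 2.1.0, DESeq2, cutadapt 2.5 and featureCounts 1.6.3, as well as the builds rn6, GRCm38 and GRCh38. The ac4C lists deposited by the authors give a p-value per peak, with no statement in the sources used here of whether it is adjusted. Per the file headers, the NAT10 RIP lists give a log2 enrichment, a p-value, an adjusted p-value, their -log10 values and a score, and the score was not used. Peak values are the authors' own.

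The members and gene lists were chosen with earlier results of these data known. Sample titles gave the groups and the replicate numbers. Genes with a mean of at least 1 FPKM (13450 of 32883) were fitted on log2(FPKM + 1) by limma 3.58.1 (R 4.3.3), using a mean-variance trend and two-sided tests with Benjamini-Hochberg adjustment at 0.05. That scale understates the change of low genes. Whole fragments were recovered from the FPKM steps for 21401 of 21401 genes above 0, and for 0 of 500 genes with altered decimals, and gave depth and a voom fit. The fit was tested on simulated data. Ratios were compared by exact permutation. Peaks were matched by gene identifier, and overlap meant at least 1 nt. Of each pathway list the 3 tested genes with the smallest p were named, except for some that are not reported here, and nearest profiles were given for Insr and Pdgfrb. Same-numbered libraries did not deviate together (correlations -0.21, -0.28 and 0.18), so the numbers were not used as pairs. The largest correlation across the groups was 0.41, between knockdown library 2 and control library 1, and its source was not tested. Alternatives were another pseudocount, filters, scalings, quality weights, voom, a replicate block and leaving out libraries.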

Additional observations from a re-analysis of the deposited data

How the results depend on the processing

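Of 640 recomputed values 616 were classed as unchanged. For log2 differences and ratios that meant the same direction and the same side of the threshold. No log2 difference passed the threshold to begin with and no ratio could, so a change of size alone left the class unchanged. Igf1r, moving from 0.19 to 0.0032 with library quality weights, was classed as unchanged. For counts it meant an equal or similar count, and for ac4C peaks per list the same direction only. Over 18 alternatives 0 receptors passed limma's adjusted threshold, and only Igf1r, Fgfr1 and Axl changed sign, Igf1r to -0.13 and Fgfr1 to -0.11 without knockdown library 3, and Axl to 0.0816 without knockdown library 2. With libraries left out in turn Igf1r reached 0.36, Fgfr1 0.21 and Axl -0.92 at the other end. The cause was not tested. The log2 difference ranged from -0.79 to -0.34 for Pdgfra, from -0.85 to -0.17 for Pdgfrb, from -0.72 to -0.15 for Ddr1 and from 0.29 to 0.69 for Insr. With 1 FPKM added before the ratio, the Pdgfra to Pdgfrb difference was 0.0173. With each library left out in turn it ran from -0.16 to 0.10, the Igf1r to Insr difference from -0.73 to 0.0486, and the Ddr1 to Ddr2 difference from -0.39 to 0.0282. Leaving out libraries gave 4 to 7 receptors with a negative difference, 0 to 1 genes called in either direction, and 0 to 3 receptors wholly above the controls (Egfr, Fgfr1 and Met without knockdown library 2, where 17.7% of all genes lay so). Library quality weights called 120 genes higher and 215 lower, with limma adjusted p-values of 0.0399 for Nat10, 0.0469 for Tgfa, 0.0457 for Yes1, 0.0290 for Grb14 and 0.0496 for Adam17. Those weights were 3.80 and 3.57 for control libraries 2 and 3, the pair most alike, against 0.2355 to 1.35 for the rest. Whether the calls rest on that pair was not tested, since the fit with control libraries 2 and 3 averaged used no weights. It called 0 genes, as the unweighted fit of all libraries did. Scaling to the recovered fragment total, chosen after seeing the data, moved the median of all genes from -0.01 to 0.12 and the genes with an unadjusted p below 0.05 to 1124 higher and 569 lower, from 744 and 935. Negative regulators were then 0.31 at the median 9 of 17 other receptor tyrosine kinases were negative, and the Ras-MAPK and Akt kinases and the co-receptors turned to medians of 0.05. A NAT10 RIP peak was found for 2 receptors when all 3 lists were required, 0 at a log2 enrichment of at least 2, and 3 to 6 with 1 list left out, chosen after seeing the data. Few peaks of any gene reached that enrichment, 47 of 2268, 40 of 1993 and 26 of 1773 in lists 1 to 3. With a replicate block 0 genes were called (500 higher and 676 lower at an unadjusted p below 0.05), and it changed no call, where a pairing by number was not seen. Receptor fragments per library were 382 to 14697, and the median coefficient of variation of receptor FPKM was 34.1% in knockdown and 12.2% in control libraries.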
